A study of Arabidopsis thaliana with 42 samples.

Results

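Wild-type Arabidopsis seedlings heated at 44 °C for 15 min were compared with seedlings taken just before the heat. The comparison holds 6 of the 42 libraries of the series, chosen by their titles alone: 3 of unheated wild type and 3 of wild type after 15 min. Both groups were whole Columbia-0 (Col-0) seedlings without a transgene, 10 days old, raised under 16 h of light a day at 23 °C in light and 18 °C in the dark, and per the series text every replicate pooled several plants. RNA was read by stranded mRNA sequencing. Values of some other groups were set beside these. They were the double mutant upf3-1upf1-5 in the same ecotype (upf below, compromised in nonsense-mediated decay per the labels) at 0 and 15 min, wild type heated for longer, and wild type heated for 15 min in medium with cycloheximide (CHX), a blocker of translation. CHX was given at 10 µg/L per the labels. All 42 libraries entered the filter of genes and the estimate of spread, among them upf and CHX groups heated for longer. Unheated seedlings were taken at 0 min only, so an effect of heat cannot be told apart from one of 15 min in liquid medium or of time of day. In whole seedlings a change in the cells that make up the sample cannot be told apart from a change of RNA per cell.

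Plant cells answer heat first through HSFA1 heat shock factors, which are present before the stress and are held inactive by chaperones. Once released they bind heat shock elements in promoters and switch on genes of chaperones and of further heat shock factors, among them HSFA2. Sudden stress of many kinds also opens calcium channels and starts oxidases and MAP kinases, and these are followed within minutes by a broad set of early transcription factors and by jasmonate synthesis, while transcripts for growth are often short-lived.

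The values are the authors' normalized counts, averaged over both lanes of a library and summed over the transcripts of a gene. They are not corrected for gene length, so they compare libraries and not genes. Their total was 16.2 ± 0.400 M (mean ± SD, n = 3, with M the prefix mega) in unheated and 18.0 ± 0.454 M in heated seedlings. The reads behind them, roughly estimated from how often each low value occurs, were 35.9 to 44.8 M per unheated and 26.8 to 44.5 M per heated library, and the shallowest was heated replicate 1. Of all 27655 listed genes, 20747 passed a filter of at least 10 in at least 3 of the 42 libraries and were tested with limma. Rises and falls are those with an adjusted p under 0.05 and a change of 2-fold or more. All changes given are in log2 of the value plus 1, so those of low genes come out too small. Genes at 0 in a whole group passed the filter only through other groups, so their call follows in part from the filter. All 6 markers of the green shoot passed the filter and moved by between -0.11 and 0.11 in log2. Of 7 root markers 6 passed it and AT1G08090 did not. Passing can rest on libraries outside this comparison, so it is no test of the labelled tissue.

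After 15 min 1850 genes had risen, 8.92% of those tested, and 1093 had fallen, 5.27%. These shares are the background for the counts of gene lists below, and some small counts lie near them. The genes that rose made up 2.98, 3.32 and 3.51% of all normalized counts in the unheated libraries and 16.1, 15.8 and 16.0% in the heated ones. Those that fell went from 2.25 ± 0.0437% to 0.746 ± 0.0128% (n = 3). The risen genes thus held more of the normalized counts after heat than the fallen ones did before it. Both sets were chosen by their change in these libraries, so the direction of these moves follows from that choice. The median log2 change of all tested genes was -0.06. With every library scaled to the same total it was -0.22, and the split became 1617 risen and 1616 fallen, that is 50.0% instead of 62.9% of calls upward.

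**Figure D1:**
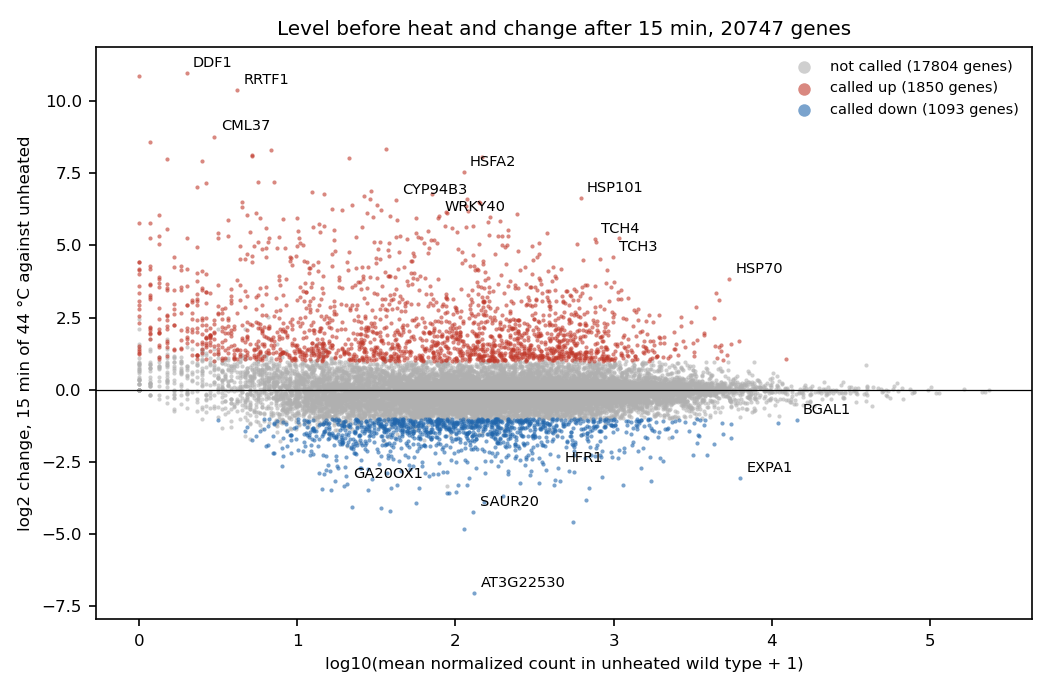
Log2 change of each of the 20747 tested genes (15 min against unheated, vertical axis) against its mean level in the 3 unheated libraries (log10 of normalized count + 1, horizontal axis), with the 1850 risen genes in red and the 1093 fallen in blue. Rises reach 10.97 (DDF1) and falls -7.04 (AT3G22530), and most genes lie near 0.

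The genes with the largest rises among those with a mean of at least 20 in both groups were led by chaperone genes. AT1G59860, annotated as an HSP20-like chaperone, stood at 25, 37 and 44.5 normalized counts in the unheated libraries and at 11687, 11230 and 11986 in the heated ones, a log2 change of 8.35 (SE 0.35, limma adjusted p = 3.3e-20). BAG6, a large co-chaperone of the BAG family, went from 115, 123.5 and 201 to 42657, 37108 and 35854 (8.07, SE 0.23, adjusted p = 1.1e-24). No heated library of either gene came near an unheated one. The other 13 genes that this ranking picks were HSP23.6-MITO (8.03), HSFA2 (7.55), AT1G66090 (6.87), AT1G53540 (6.78), AT1G72416 (6.70), HSP101 (6.63), AT1G54050 (6.62), AT1G07135 (6.59), CYP94B3 (6.56), AT4G29780 (6.50), Hsp70b (6.46), CML38 (6.41) and AT5G10695 (6.39).

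Ranked by normalized count at 15 min, which is not corrected for length and so favours long transcripts, the top 6 genes that rose were all chaperone genes. They were HSP70, HSP101, HSP81-2, HSP90.1, AT3G09440 of the HSP70 family and BAG6. HSP70 (AT3G12580) stood at 4520, 6742 and 4929 before heat and at 76840, 78388 and 72253 after it (3.83, SE 0.21, adjusted p = 4.4e-17). The top 6 by this ranking among genes that fell lay much closer to the 2-fold limit. Ranking by the level after heat itself favours large rises and small falls, so this difference follows in part from the ranking. BGAL1, a beta-galactosidase of the cell wall, went from 13872, 14587 and 14773 to 6079, 7961 and 6899 (-1.05, SE 0.16, adjusted p = 3.2e-06). VTC2, which makes the committed step of vitamin C synthesis, changed by -1.15 and CH1, the oxygenase that makes chlorophyll b, by -1.17. AT5G20700 changed by -1.14, J8, a J-domain protein, by -1.04 and NCED4, a carotenoid dioxygenase, by -1.68. The calls of BGAL1 and J8 were lost under some other settings.

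Of 24 tested heat shock factor and co-activator genes 11 rose and 1 fell, and the median change was 0.68. The 4 HSFA1 genes, which are the factors already present before heat, were not called: HSF1 (HSFA1A) changed by -0.39, HSF3 (HSFA1B) by -0.25, HSFA1D by -0.02 and HSFA1E by 0.37. The heat-induced factors rose steeply. HSFA2 (AT2G26150) stood at 84, 135.5 and 116 before heat and at 21249, 19693 and 21384 after it. Its log2 change was 7.55 (SE 0.16, adjusted p = 8.3e-28). HSFA7B stood at 4, 2.5 and 6 and then at 1447, 1340 and 1423 (8.14, SE 0.24, adjusted p = 2.9e-24), and HSFA7A changed by 5.45. MBF1C, a transcriptional co-activator needed for heat tolerance, went from 332, 347.5 and 335 to 9552, 7927 and 9031 (4.70, SE 0.23, adjusted p = 2.7e-18). Class B factors, which act as repressors, rose as well: HSF4 (HSFB1) by 3.60, HSFB2B by 3.35 and HSFB2A by 3.07. HSFA6A fell, by 1.95.

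Several of these genes have a heat shock element next to their start in the reference genome. The motif searched was 3 alternating units of GAA and TTC in a row, either of them at the start and NN between neighbours, on both strands and from 250 bases before to 50 after the annotated start. It was in 0.545% of the 20553 promoters of tested genes, in 1.98% of those of genes that rose, in 0.458% of those that fell and in 4.11% (9 of 219) of those that rose at least 16-fold. The 9 were HSFA7B, HSFA2, AT1G53540, AT1G71000, HSP17.4, HSFA7A, Hop3, DREB2A and AT1G03070. A match is a run of letters and no evidence of binding, and most genes with large rises had none in this window. Below are 60 bases around the match, 5′ to 3′ along the gene, in the TAIR10.1 build, shown because they belong to 2 of the steepest heat shock factors, a small heat shock protein and an AP2/ERF factor that rose; they were picked after the values were seen, and capitals mark the element.
HSFA2 (chr2:11135512-11135571, plus strand, element 75 bases before the start): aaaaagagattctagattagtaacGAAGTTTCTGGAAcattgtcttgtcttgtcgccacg
HSFA7B (chr3:23399055-23399114, plus strand, 144 bases before): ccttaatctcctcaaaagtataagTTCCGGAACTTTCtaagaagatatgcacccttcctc
HSP17.4 (chr3:16984868-16984927, minus strand, 5 bases before): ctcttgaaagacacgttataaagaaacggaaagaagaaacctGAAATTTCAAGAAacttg
DREB2A (chr5:1602017-1602076, plus strand, 151 bases before): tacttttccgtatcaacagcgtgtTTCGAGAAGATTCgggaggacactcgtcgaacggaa

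Chaperone genes rose in large numbers. Of 45 genes of HSP70, HSP90, HSP100 and their co-chaperones 24 rose and none fell, with a median of 1.34. HSP101 (AT1G74310), the cytosolic disaggregase, stood at 487.5, 745 and 624 and then at 60858, 61851 and 58607 (6.63, SE 0.21, adjusted p = 2.9e-23). Hsp70b, a stress-induced HSP70, went from 110.5, 135 and 184 to 14156, 11720 and 11616 (6.46, SE 0.22, adjusted p = 9.4e-23). HSP90.1, the heat-induced cytosolic HSP90, went from 783, 1352 and 1108 to 41712, 41227 and 39572 (5.27, SE 0.19, adjusted p = 3.3e-22). In each case the lowest heated library lay far above the highest unheated one. Co-chaperones of these machines also rose, such as Hop3 (5.13), which links HSP70 to HSP90, Fes1A (4.49), a nucleotide exchange factor, and the immunophilin ROF1 (2.604). Mitochondrial MTHSC70-2 rose by 3.47 and the disaggregases CLPB4 of the mitochondrion and CLPB3 of the plastid by 3.26 and 1.52. Some chaperones of the endoplasmic reticulum in this list were not called. Of these, BIP1 changed by 0.32, BIP2 by 0.27, BIP3 by 1.03 and SHD, the HSP90 of that compartment, by 0.02. Plastid cpHsc70-1 (0.66), cpHsc70-2 (0.66), CPN60A (0.58) and CPN60B (0.23) were not called either.

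Of 16 small heat shock protein genes 14 rose, with a median of 6.204, the highest of the 22 lists. HSP23.6-MITO of the mitochondrion stood at 6.5, 20 and 34.5 and then at 5125, 4155 and 4665 (8.03, SE 0.40, adjusted p = 3.4e-18). HSP22.0 (ATHSP22.0) of the endoplasmic reticulum stood at 3, 3.5 and 11 and then at 2107, 1656 and 1987 (8.31), and HSP21 of the plastid at 1, 0 and 3.5 and then at 556, 473.5 and 488.5 (7.93). AT1G52560, an HSP20-like chaperone, changed by 6.85, and the cytosolic HSP17.6A, HSP17.4, HSP17.6II and HSP18.2 by 6.38, 6.196, 6.11 and 5.30. AT4G21870 (0.49) and AT5G47600 (-0.14) were not called. Members of the HSP20 and HSP70 families are similar in sequence and reads can be shared out among them wrongly, so single members are less certain than their sum.

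**Figure D2:**
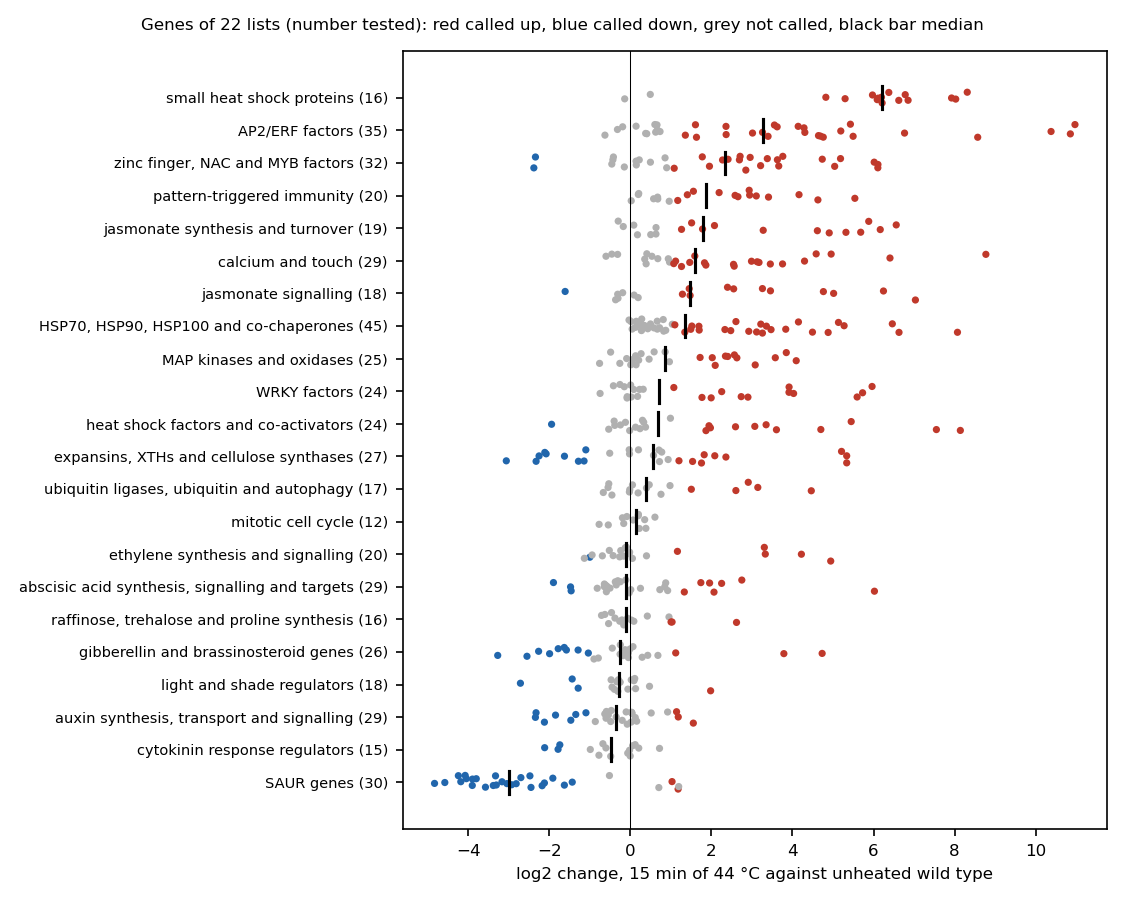
Log2 change (15 min minus 0 min, horizontal axis) of every tested member of the 22 gene lists (rows, with the number tested), as points in red where the gene rose, blue where it fell and grey where it was not called; black bars are medians. Small heat shock proteins and AP2/ERF factors lie furthest to the right and SAUR genes furthest to the left, at a median of -2.99.

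Calcium and kinase genes rose with the chaperones. Of 29 calcium and touch genes 19 rose and none fell, with a median of 1.59. CML38, a calmodulin-like protein, stood at 22.5, 16 and 25.5 and then at 2114, 1602 and 1902 (6.41, SE 0.32, adjusted p = 4.8e-18). TCH3, a touch-induced calmodulin-like protein, went from 665, 1138 and 1156 to 20893, 26186 and 22117 (4.58, SE 0.15, adjusted p = 4.2e-23). CML37 changed by 8.77, from values of at most 3, and AT1G76640, an EF-hand protein, by 4.95. The calcium-dependent kinases CPK28, CPK32 and CPK29 rose by 3.75, 3.17 and 2.56, while the channel genes CNGC6 (-0.32) and DND1 (-0.60) were not called.

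Of 25 MAP kinase cascade and oxidase genes 11 rose and none fell, with a median of 0.86. MPK3, a kinase of immune and stress signalling, stood at 490, 565 and 825.5 and then at 7191, 7712 and 7015 (3.58, SE 0.14, adjusted p = 9.2e-21). MPK6 (0.14) and MPK4 (0.05), which act beside it in immunity, were not called, while MPK11 rose by 3.85. RBOHD, the NADPH oxidase behind stress bursts of superoxide, went from 894, 958.5 and 973 to 8034, 8514 and 7389 (3.08, SE 0.15, adjusted p = 2.0e-18). AT2G30020, the MAP kinase phosphatase AP2C1, changed by 4.09. For MPK3 and RBOHD every heated library lay well above the unheated ones.

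Early transcription factors rose over a wide front. Of 35 AP2/ERF genes 24 rose and none fell, with a median of 3.26. The largest change, 10.97, was that of DDF1, which stood at 1, 0.5 and 1.5 and then at 4333, 3758 and 3725, so its fitted size depends on the pseudocount. RRTF1 (10.38) and DDF2 (8.57) also started from near 0. AT5G51190, annotated as a factor of ERF subfamily B-3, was listed at 0 in all unheated libraries and stood at 1732, 2006 and 1834 after 15 min. Within the CBF family of cold-induced factors CBF2 rose by 4.64 and CBF1 by 4.28, while DREB1A (CBF3), which lies beside them on chromosome 4, changed by 0.14 and was not called. DREB2A, the drought and heat factor upstream of HSFA3, rose by 4.76.

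Of 24 WRKY genes 12 rose and none fell, with a median of 0.69. WRKY40, a repressor of immune genes, stood at 62, 82 and 87.5 and then at 4740, 5304 and 4471 (5.96, SE 0.27, adjusted p = 2.6e-19). WRKY46 (5.73), WRKY18 (5.59), its partner, and WRKY33 (4.03), a factor of defence against fungi, rose too. Of 32 zinc finger, NAC and MYB genes 20 rose and 2 fell, with a median of 2.34. STZ (ZAT10), a zinc finger repressor of stress genes, stood at 58, 75 and 99.5 and then at 5221, 5168 and 4524 (6.02, SE 0.20, adjusted p = 5.2e-23). ZAT7 (6.11), MYB15 (6.11) and RHL41 (ZAT12, 5.19) moved by a like amount. The 2 that fell were AT2G28200 (-2.38) and ATCTH (-2.34).

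A hexamer known as the rapid stress response element, CGCGTT, was more frequent in promoters of genes that rose. In the same window and on both strands it was in 3.81% of all promoters of tested genes, in 12.7% of those of genes that rose and in 1.10% of those that fell. Among genes that rose at least 16-fold it was in 15.5%, 34 of 219, among them DDF2, LOX4, JAZ1, CBF2, PHI-1, XTH18, SYP122 and AT4G29780. The W box TTGACC or TTGACT, which WRKY factors bind, was in 32.7% of all, 41.95% of risen and 25.1% of fallen genes. The dehydration-responsive element ACCGAC (6.25, 6.97 and 5.67%) and the GCC box GCCGCC (2.66, 3.02 and 2.38%), which AP2/ERF factors bind, were at like shares in all 3, and at 7.76% and 4.11% (9 of 219 for the GCC box) among genes that rose at least 16-fold. The G box CACGTG was in 9.02, 10.8 and 7.14%. Site II TGGGCC, found before genes of ribosomes and cell division, was in 18.3% of all and in 10.3% of both risen and fallen genes, and the telo box AAACCCTA in 5.43, 2.69 and 3.202%. No test was made of these shares. Below are 60 bases around the hexamer in genes described here, laid out as above and also picked after the values were seen, with the hexamer in capitals; JAZ1 has 2 overlapping matches on opposite strands.
DDF2 (chr1:23368452-23368511, minus strand, 62 bases before the start): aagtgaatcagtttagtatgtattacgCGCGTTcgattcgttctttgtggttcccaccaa
CBF2 (chr4:13016277-13016336, minus strand, 68 bases before): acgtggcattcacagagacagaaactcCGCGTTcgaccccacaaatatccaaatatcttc
LOX4 (chr1:27308307-27308366, plus strand, 173 bases before): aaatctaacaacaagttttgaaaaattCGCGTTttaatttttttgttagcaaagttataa
JAZ1 (chr1:6621621-6621680, plus strand, 123 bases before): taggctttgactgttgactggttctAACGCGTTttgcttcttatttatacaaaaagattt

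**Figure D3:**
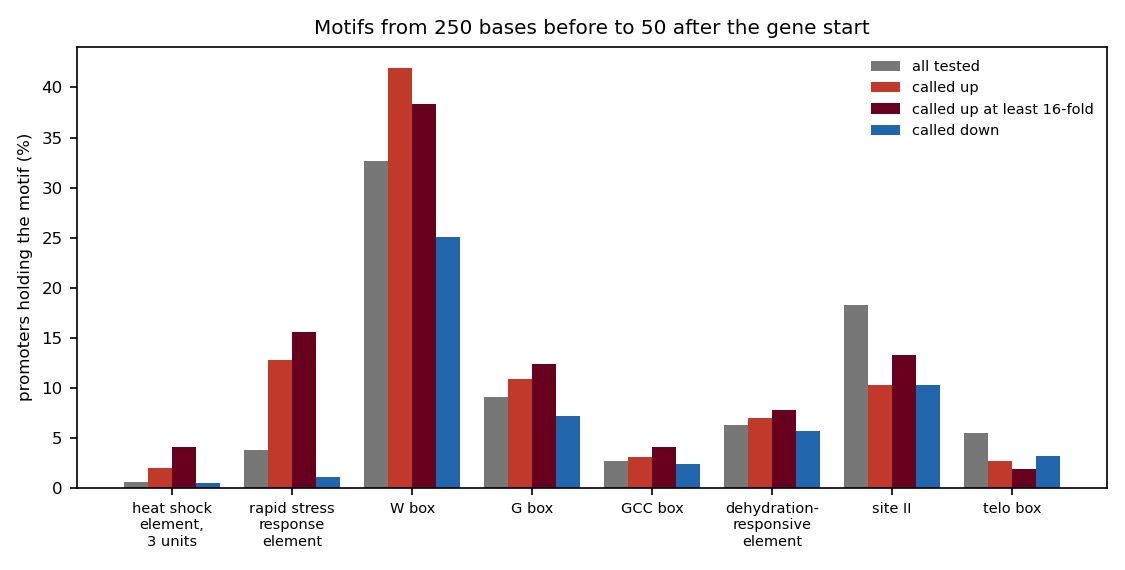
Share of promoters that hold each of 8 motifs (percent, 250 bases before to 50 after the start, both strands) as bars for all tested genes, genes that rose, genes that rose at least 16-fold and genes that fell. The rapid stress response element goes from 3.81% of all promoters to 12.7% of those of risen genes, while the GCC box goes from 2.66 to 3.02%, and to 4.11% of those that rose at least 16-fold.

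Jasmonate genes rose at several steps, from the start of synthesis to the repressors of the response. Of 19 genes of jasmonate synthesis and turnover 12 rose and none fell, with a median of 1.78. LOX4, a 13-lipoxygenase at the start of the route, stood at 67, 86 and 104.5 and then at 6449, 6546 and 5465 (6.17, SE 0.21, adjusted p = 9.1e-23). LOX3 (5.68), the cyclase AOC3 (5.32), the ligase OPCL1 (4.61) and the reductase OPR3 (3.28) followed. CYP94B3, a P450 that oxidizes active jasmonate, went from 50, 34.5 and 39 to 4173, 4066 and 3580 (6.56, SE 0.21, adjusted p = 3.5e-23), and CYP94C1 rose by 5.88, so genes of synthesis and of breakdown were both among those that rose. LOX2 (-0.30), AOC1 (0.17), AOC2 (0.63), AOC4 (0.08) and JAR1 (-0.18), which forms the isoleucine conjugate, were not called.

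Of 18 jasmonate signalling genes 11 rose and 1 fell, with a median of 1.46. JAZ1, a repressor that is degraded when the hormone is sensed, stood at 149, 201.5 and 284 and then at 6609, 7267 and 6091 (5.01, SE 0.19, adjusted p = 3.0e-21). JAZ8, JAZ7 and JAZ5 changed by 7.03, 6.25 and 4.76. The factor MYC2 rose by 3.26, MYC3 changed by -0.19 without a call, and MYC4 fell by 1.61.

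Other stress hormones moved in fewer of their genes. Of 20 ethylene genes 5 rose and 1 fell, with a median of -0.11, and all 5 that rose encode ACC synthases, the rate-limiting enzymes: ACS6 (4.94), ACS7 (4.22), ACS11 (3.33), ACS8 (3.305) and ACS2 (1.16). ACS6 stood at 206.5, 224 and 184.5 and then at 7448, 5520 and 6131. The receptors ETR1 (-0.13) and ERS1 (-0.17) were not called, and EIN2, which carries the signal to the nucleus, lay just past the limit at -1.001. Scaled to equal totals, 3 genes of the list fell instead of 1.

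Of 29 abscisic acid genes 7 rose and 3 fell, with a median of -0.11. CYP707A3, a hydroxylase that breaks the hormone down, stood at 43, 30 and 40 and then at 2728, 2356 and 2387 (6.02, SE 0.22, adjusted p = 4.7e-22), and CYP707A1 of the same family rose by 2.75 while CYP707A2 fell by 1.48. The receptors PYL5 and PYL4 rose by 2.06 and 1.33. The phosphatases HAI2 and HAI3, which dampen the signal, fell by 1.90 and 1.46. NCED3, which makes the committed step of synthesis under stress, changed by 0.87 and was not called.

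Of 20 genes of pattern-triggered immunity 13 rose and none fell, with a median of 1.87. PHI-1, an EXORDIUM-like protein, stood at 151.5, 307 and 186 and then at 10676, 9271 and 8918 (5.54, SE 0.27, adjusted p = 1.6e-18). BAP1 (4.63), a brake on cell death, the syntaxin SYP122 (4.16) and NHL3 (3.41) rose, as did the peptide receptors PEPR1 (2.58) and PEPR2 (2.19). FLS2 (0.02) and CERK1 (0.21), receptors of flagellin and chitin, were not called, nor was the marker FRK1 (0.67). Of 17 ubiquitin and autophagy genes 5 rose, each a ubiquitin ligase: PUB23 (4.46), PUB22 (3.14), CNI1 (2.91), ATL2 (2.603) and ATL6 (1.503). The polyubiquitin genes UBQ3 (-0.67), UBQ10 (-0.55) and UBQ11 (0.98) and the autophagy gene APG8A (-0.02) were not called. Of 16 genes of raffinose, trehalose and proline synthesis 3 rose, and GolS1, a heat-induced galactinol synthase, was the clearest: it stood at 1011, 1000.0 and 1019 and then at 6416, 6049 and 6159 (2.62, SE 0.16, adjusted p = 5.8e-16). ASN1 (1.03) and ERD5 (1.00), a proline dehydrogenase, lay at the limit and were lost under other settings.

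SAUR genes had the largest share of falls of the 22 lists. They encode small proteins that are induced by auxin within minutes, and many promote cell expansion. Of 30 tested 25 fell and 2 rose, with a median of -2.99. AT4G38860 stood at 536.5, 677 and 449 before heat and at 23, 17.5 and 26 after it (-4.58, SE 0.40, adjusted p = 1.6e-11). SAUR20, of the SAUR19 cluster on chromosome 5, went from 155.5, 128.5 and 103 to 4, 5.5 and 8.5 (-4.25, SE 0.44, adjusted p = 8.3e-10). AT1G29460 (-4.83) and SAUR22 (-4.19) changed by a like amount. The 2 that rose were AT1G72430 (1.18) and AT1G56150 (1.03). Neighbouring SAUR genes are near-copies of each other, so their single values are less certain than the fall of the family.

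Of 29 other auxin genes 7 fell and 3 rose, with a median of -0.35. The share that rose lies near the 8.92% of all tested genes. ATAUX2-11 (IAA4), an Aux/IAA repressor, stood at 640.5, 671 and 670.5 and then at 148.5, 114.5 and 127 (-2.34, SE 0.33, adjusted p = 4.8e-07). IAA29 (-2.33), IAA5 (-2.122, its call lost under some settings) and IAA1 (-1.47) of the same family fell too, and IAA19 rose by 1.14. YUC8, an enzyme of auxin synthesis, fell by 1.85 while YUC9 rose by 1.18. The transporters PIN7 and PIN3 fell by 1.35 and 1.10, and the receptor TIR1 (-0.63) was not called.

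The wall list split by enzyme class. Of 27 genes 9 rose and 9 fell, and every gene that fell was an expansin and every gene that rose an XTH, an enzyme that cuts and rejoins xyloglucan. EXPA1, an expansin that loosens growing walls, stood at 6875, 6363 and 5692 and then at 602.5, 950.5 and 742.5 (-3.06, SE 0.22, adjusted p = 8.7e-14). EXPA4 (-2.33), EXPA10 (-2.25), EXPA11 (-2.11) and EXPA15 (-2.08) fell as well, and EXPA5 (-0.51) was not called. TCH4 (XTH22) went the other way, from 662, 803.5 and 824 to 34168, 23768 and 27485 (5.21, SE 0.22, adjusted p = 2.2e-20), and XTH18 went from 185.5, 187.5 and 184 to 6992, 8108 and 7580 (5.34). XTR6 (XTH23) changed by 5.34. The cellulose synthases CESA1 (-0.03), CEV1 (0.20) and CESA6 (0.70) were not called.

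Of 26 gibberellin and brassinosteroid genes 9 fell and 3 rose, with a median of -0.25. With equal totals 10 fell and 2 rose, and the share that rose lies near the 8.92% of all tested genes. The gibberellin-inactivating oxidases GA2OX6 and GA2OX2 rose, the former from 41, 51 and 67 to 1377, 1563 and 1292 (4.73, SE 0.16, adjusted p = 1.3e-22) and the latter by 3.79. GA20OX1, which makes gibberellin precursors, stood at only 13.5, 21.5 and 24 and fell to 0.5, 2 and 1 (-3.27, SE 0.47, adjusted p = 7.2e-07). BR6OX2, which makes the last step to brassinolide, went from 323.5, 351 and 394.5 to 73, 53 and 55 (-2.55, SE 0.28, adjusted p = 2.2e-09). The growth-promoting factors PRE5, PRE1 and BEE3 fell by 2.27, 1.99 and 1.78.

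Of 18 light and shade regulators 3 fell and 1 rose, beside 5.27% fallen and 8.92% risen among all tested genes, so the count of rises is no result about the list. HFR1, a factor of light-grown development, went from 530, 380.5 and 425.5 to 73, 50.0 and 80.0 (-2.71, SE 0.26, adjusted p = 1.1e-10). PIL5 (PIF1) and PAR1 fell by 1.44 and 1.29, ELIP1, a light stress protein of the plastid, rose by 1.98, and PIF4 (0.09), HY5 (-0.34) and PHYB (-0.48) were not called. Of 15 cytokinin genes 3 fell and none rose, and all 3 are type-A response regulators, which dampen the hormone's signal: ARR9 (-2.116), RR3 (ARR8, -1.79) and ARR6 (-1.74). ARR9 stood at 690.5, 543.5 and 450 and then at 150, 100.5 and 135. With equal totals 4 cytokinin genes fell.

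None of 12 mitotic cell cycle genes was called by limma, and their median change was 0.13, or -0.03 with equal totals. SYP111 (KNOLLE), the syntaxin of the dividing cell plate, stood at 362.5, 435.5 and 369.5 and then at 369, 481.5 and 491.5 (0.19, SE 0.21, adjusted p = 0.55). The ranges of its groups overlap. CDC20.1 changed by 0.35 (adjusted p = 0.30).

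**Figure D4:**
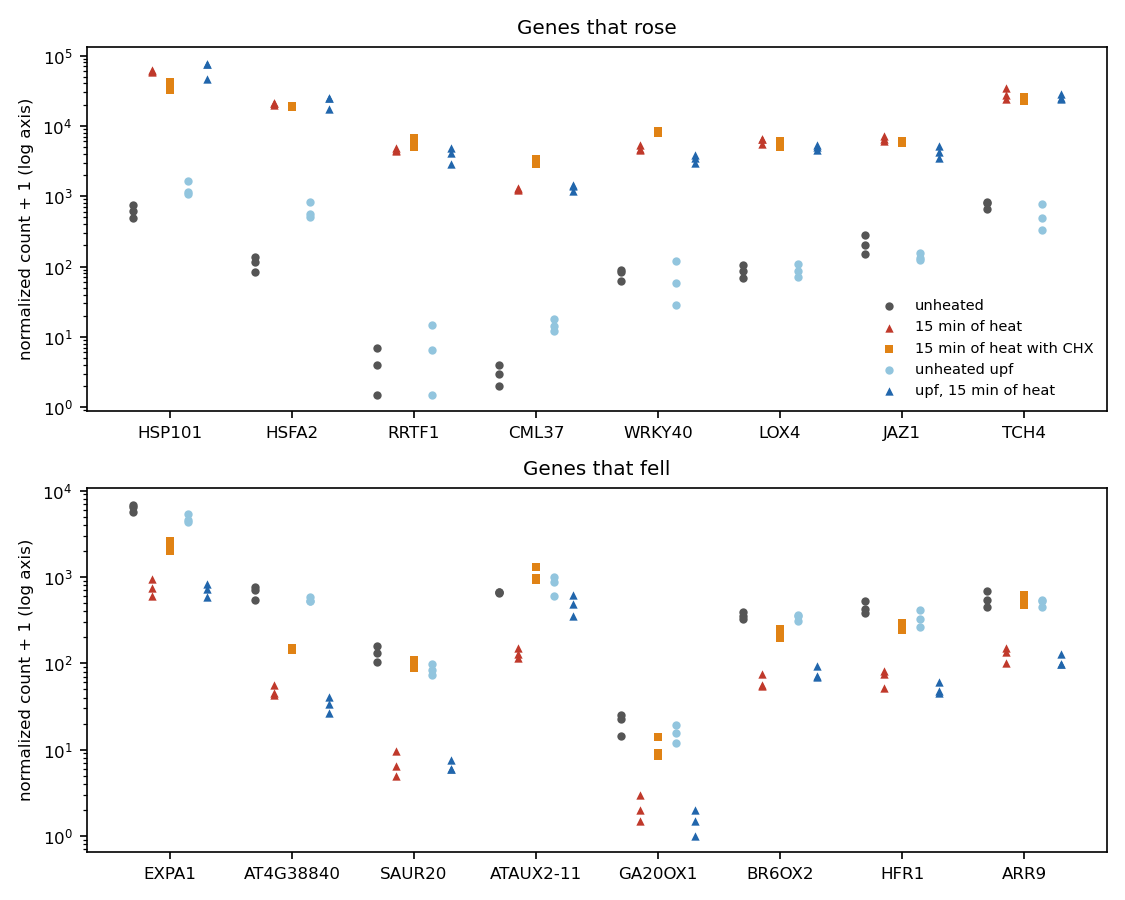
Normalized count + 1 (log axis) in each library, 3 points a group, for 8 genes that rose (top) and 8 that fell (bottom), in unheated and heated wild type, wild type heated with CHX, and unheated and heated upf. Heated wild type (red) lies above every unheated library (grey) for all 8 genes at the top and below for all 8 at the bottom; for ATAUX2-11 the CHX libraries (orange) lie above the unheated ones.

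The 15 largest falls among genes with a mean of at least 20 in both groups included 4 SAUR-like genes, of which AT4G38860, AT4G38840 (-3.80) and AT2G21210 (-3.17) are in the SAUR list and AT2G46690 (-3.11) is not, and the listed expansin gene EXPA1. The others were AT3G63210 (-3.39), AT5G20790 (-3.30), the amino acid transporter family gene UMAMIT11 (-3.28), P1R1 (-3.24), OFP16 (-3.22), AT2G15020 (-3.16), AT4G28240 (-3.01), RTFL16 (-2.96), AT1G78170 (-2.91) and the kinase gene CIPK5 (-2.85). OFP16 stood at 396, 329 and 283.5 and then at 53, 25.5 and 31. Each of the 15 had groups that did not overlap, which the ranking required.

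Some genes were present in only 1 of the groups. Of the genes that rose 19 were listed at 0 in all unheated libraries; after AT5G51190 the most abundant was AT1G07500, at 36, 65.5 and 66.5 in the heated libraries. AT3G22530, whose annotation says no more than heat shock protein, stood at 116.5, 130 and 146.5 and was listed at 0 in all heated libraries (adjusted p = 0.00017). AT1G55152 was the only other such fall and stood at 10.5, 0 and 7.5, and its call was lost under some settings. An exact 0 in such a table can be a failed estimate.

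Organelle-encoded genes were looked at apart, since mRNA libraries hold little of their RNA. None of 86 tested plastid-encoded genes was called by limma, and their median change was -0.11, which ranged from -0.385 to 0.123 when a library was left out and so had no stable sign. Of 107 mitochondrion-encoded genes 29 rose and none fell, with a median of 0.73. They made up 0.0187 ± 0.00122% of the total before and 0.0275 ± 0.00403% after heat (n = 3). The number that rose was 22 with equal totals and 10 with a pseudocount of 10, and it was 36 without heated replicate 3. Copies of mitochondrial genes on chromosome 2 make these values uncertain gene by gene.

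In some genes the relative use of transcripts changed. limma's diffSplice compared the log2 change of each of 22958 transcripts with that of the other transcripts of its gene, over 8205 genes, and a call needed an adjusted p under 0.05 and a difference of at least 1. It called 756 transcripts (3.29%), of which 359 were higher (1.56%) and 397 lower (1.73%), in 474 genes. The gene total had risen in 104 of these, fallen in 13 and not been called in 357. That is 24.7% called in level, against 10.8% of all 8205 genes tested for usage, and 21.9% risen against 7.61%. In 82 of the 474 genes another transcript became the most abundant. The same count was not made over all 8205 genes, so this number is a description only. Of the 756 called transcripts 520 held at least 10% of their gene in either group. A call is a difference of log2 changes and need not follow the share. AT4G21410.1 of CRK29 was called higher (2.73) while its share went from 48.4 ± 2.43% to 42.4 ± 2.44%. Shares are of the gene's summed normalized counts and are estimates of the quantifier, which are less certain where transcripts differ little.

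SR45a and SR30, genes of serine and arginine-rich splicing proteins, were looked at after their values were seen. The SR45a transcript AT1G07350.1, with 7 exons, 382 codons and its stop in the last exon, went from 32.0 ± 0.776% to 74.3 ± 1.02% of the gene (difference 3.36, adjusted p = 1.7e-08). AT1G07350.2, whose frame has 129 codons and ends 590 bases before the last exon junction, went from 38.5 ± 2.68% to 3.16 ± 0.297% (-3.06, adjusted p = 3.6e-07). Another form with an early stop, AT1G07350.6, of 203 codons and ending 672 bases before the last junction, held 22.8 ± 1.99% and 21.5 ± 1.45%, and its use relative to the other forms was higher (1.63, adjusted p = 0.024), a call lost under 6 of the other settings. The gene as a whole rose by 3.16. For SR30 the gene total was not called (0.74), and the moves were between forms whose stop lies 359 (AT1G09140.2) and 987 bases (AT1G09140.3) before the last exon junction. AT1G09140.2 went from 53.4 ± 3.34% to 22.3 ± 5.54% (-2.74, adjusted p = 4.6e-09) and AT1G09140.3 from 4.82 ± 0.293% to 38.4 ± 5.67% (3.66, adjusted p = 1.2e-13). The form with the longest frame, AT1G09140.1 with 268 codons, held 41.8 ± 3.63% and 39.3 ± 3.94%. For HSFA2, also looked at after its values were seen, AT2G26150.1 went from 19.6 ± 6.37% to 40.1 ± 5.42% and AT2G26150.3 from 29.1 ± 8.39% to 10.0 ± 1.97% (-1.80, adjusted p = 0.0094). The call of AT2G26150.3 was lost without unheated replicate 2 (adjusted p = 0.062), unheated replicate 3 (0.10) or heated replicate 1 (0.087). That of AT2G26150.1 (1.62, adjusted p = 0.026) was lost without any of these 3 libraries or heated replicate 3, and with lane 2 alone (adjusted p from 0.0899 to 0.21).

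The ranking by size of the usage difference picked 8 genes. NUDT7, a Nudix hydrolase that dampens immunity, had 50.1 ± 9.84% of its counts in AT4G12720.2 before heat, and this form was listed at 0 in all heated libraries (-12.26, adjusted p = 4.8e-28). AT4G12720.3, with the same 282 codons, went from 4.14 ± 0.748% to 57.8 ± 7.89%. BAP1 has 2 forms, both of 192 codons, and the more abundant one changed. Its single-exon form AT3G61190.1 held 1.32, 0 and 1.05% in the unheated libraries and 70.4, 69.3 and 80.2% in the heated ones (6.30, adjusted p = 1.8e-11). The other form, AT3G61190.2, kept 26.7 ± 5.98% of the counts, and its own level went from 37.0 ± 10.3 to 247.5 ± 69.1. ACA1, a calcium-transporting ATPase, gained AT1G27770.3, of 957 codons, from 2.92 ± 0.346% to 24.1 ± 1.85%, and lost AT1G27770.4, of 1020 codons, from 36.6 ± 10.5% to 1.47 ± 0.963%. Its most abundant form in both groups was AT1G27770.1, also of 1020 codons. That form held 60.5 ± 10.2% and 74.5 ± 1.32%, and its usage was not called. The other genes were CRK29, AGO3, SKP2B, AT2G38780 and MYB48, of which CRK29, SKP2B and AT2G38780 were not called in total.

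**Figure D5:**
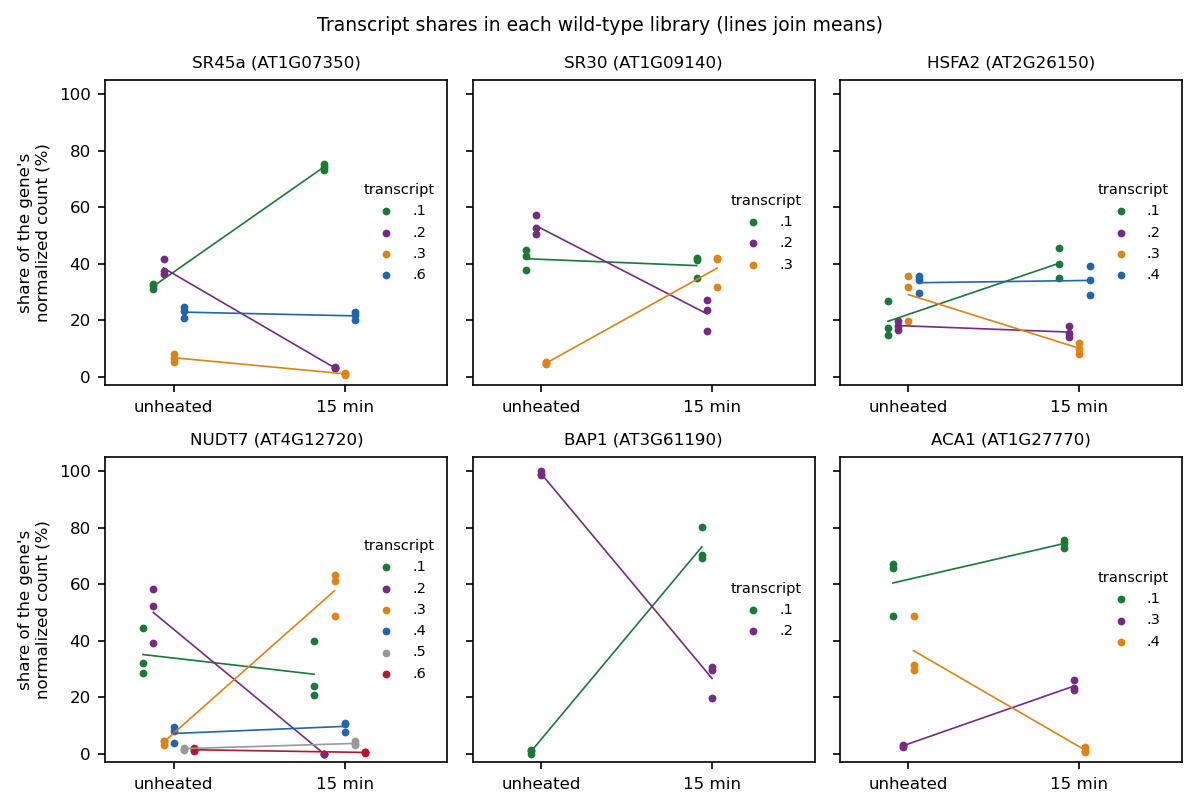
Share of the gene's normalized counts held by each transcript (percent, vertical axis) in every unheated and heated wild-type library, as points with lines that join the means, for SR45a, SR30, HSFA2, NUDT7, BAP1 and ACA1. AT1G07350.1 of SR45a goes from 32.0 to 74.3% and AT3G61190.1 of BAP1 from 0.789 to 73.3%.

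The upf libraries share none with this comparison, so they show the same measure in other seedlings. Both comparisons used the same filter and the same estimate of spread for each gene, so their calls are not fully independent. In upf 1667 genes rose (8.03%) and 965 fell (4.65%) after 15 min. Of the genes that rose in wild type 1502 also rose in upf, which is 81.2% of the wild-type and 90.102% of the upf list. Of those that fell 675 also fell, 61.8% and 69.9%. The log2 change had the same sign in upf for 99.0% of the wild-type rises and 98.7% of the falls, and none was called in the opposite direction. By list, upf had 15 of 16 small heat shock proteins risen, 24 of 35 AP2/ERF genes, 12 of 19 jasmonate synthesis genes and 26 of 30 SAUR genes fallen. Other lists had fewer calls in upf: of the other auxin genes 4 fell instead of 7, with 3 shared, and 2 rose instead of 3, with 1 shared, and of the pattern-triggered immunity genes 10 rose instead of 13, all 10 shared. HSP101 stood at 1079, 1158 and 1638 and then at 74764, 47090 and 76810 in upf (5.67, SE 0.21), and EXPA1 at 4608, 5355 and 4291 and then at 580.5, 722 and 817.5 (-2.76, SE 0.22).

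The response itself differed between the genotypes, by limma's test of the difference, in 13 genes (0.0627%). For 10 of them (0.0482%) the difference was below 0, upf minus wild type, and for 3 (0.0145%) above. In HSFA2 the response was 7.55 in wild type and 5.15 in upf (difference -2.40, SE 0.23, adjusted p = 1.2e-07). Unheated upf stood at 510, 550 and 835.5, above every unheated wild-type library, and heated upf at 24921, 17177 and 24548, a range that holds the heated wild type. In unheated upf AT2G26150.3 held 56.6 ± 11% and AT2G26150.1 4.62 ± 4.38%, against 29.1 ± 8.39% and 19.6 ± 6.37% in unheated wild type. By diffSplice the usage change differed between genotypes for AT2G26150.3 (-3.02, adjusted p = 0.019) and AT2G26150.4 (3.39, adjusted p = 0.0055). It did not pass for AT2G26150.1 (2.22, adjusted p = 0.37) or AT2G26150.2 (-2.60, adjusted p = 0.10). In the authors' deposited table AT2G26150.1 changed by 8.64 in wild type and 8.04 in upf. The other 12 genes are given among the results to look at again.

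CHX and later times share the heated libraries with this comparison, so their values are only set side by side for genes named above. There is no unheated CHX group. With CHX 4.24% of tested genes were higher and 0.492% lower at 15 min than without it. Several genes that fell at 15 min were higher with CHX. SAUR22 averaged 37.5 ± 3.97 unheated, 1.17 ± 0.577 heated and 77.2 ± 13.6 heated with CHX (CHX against none 5.20, adjusted p = 1.0e-09). ATAUX2-11 averaged 661 ± 17.5, 130 ± 17.2 and 1060.0 ± 202 (3.01, adjusted p = 3.2e-08), and RTFL16 298 ± 4.54, 37.8 ± 8.43 and 285 ± 79.5 (2.87, adjusted p = 9.3e-09). EXPA1 averaged 6310 ± 594, 765 ± 175 and 2276 ± 289 (1.59). For these genes CHX left levels from below to above the unheated ones.

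Among genes that rose, HSFA2 averaged 20775 ± 940 without and 18661 ± 423 with CHX (-0.15, adjusted p = 0.59). LOX4 averaged 6153 ± 598 and 5494 ± 501 (-0.16, adjusted p = 0.66) and TCH4 28474 ± 5271 and 23817 ± 1873 (-0.24, adjusted p = 0.50). STZ was higher with CHX, at 4971 ± 388 and 11756 ± 351 (1.24, adjusted p = 2.7e-05), as was CYP707A3, at 2490 ± 206 and 6129 ± 910 (1.29, adjusted p = 5.3e-05). CYP94C1 was lower, at 2409 ± 300 and 1196 ± 172 (-1.01, adjusted p = 0.0047), a call just past the 2-fold limit that was lost in 5 of 14 other settings (-1.13 to -0.91), among them those without heated replicate 2 (-0.92) and without CHX replicate 1 (-0.96) or 2 (-0.95). A p above the threshold does not show that CHX left a gene as it was.

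From 15 to 30 min 4.64% of tested genes rose and 8.29% fell, that is 963 and 1719 genes, which became 705 and 3782 with equal totals. HSP21 averaged 506 ± 43.9 at 15 min, 12030.0 ± 1070.3 at 30 min and 27933 ± 514 at 90 min (30 against 15 min 4.57, adjusted p = 4.1e-13). MBF1C went on rising, by 2.27, and GolS1 by 2.96. Some other genes were lower at 30 min: CYP94B3 averaged 3940 ± 316, 1568 ± 410 and 524 ± 47.8 at 15, 30 and 90 min (-1.36, adjusted p = 5.6e-06), RBOHD 7979 ± 564, 3828 ± 541 and 2214 ± 188 (-1.07, adjusted p = 8.9e-07; -0.98 without 30 min replicate 3, under the 2-fold limit) and ATL2 775 ± 167, 198 ± 24.8 and 144 ± 4.80 (-1.95, adjusted p = 2.4e-11). TCH4 averaged 28474 ± 5271, 27348 ± 1306 and 5480.0 ± 1209 at these times.

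The authors' deposited table of comparisons, which lists transcripts, holds 3114 that rose and 1963 that fell at 15 min by the same thresholds. In the authors' deposited table AT1G59860.1 changed by 8.36, HSFA2 transcript AT2G26150.1 by 8.64, LOX4 transcript AT1G72520.1 by 6.17 and EXPA1 transcript AT1G69530.2 by -3.10.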

How the data were processed

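Samples were grouped from their titles. The authors deposited a table of normalized counts per transcript and lane, a score rather than counts: the values are whole numbers, and in both lanes of heated replicate 1, where the fitted step is above 1, 98.8 and 100% of the values up to 40 fell on it, so all were read as scaled and rounded. In the other 5 libraries the step is below 1 and leaves no gaps, so it was fitted only to how often each low value occurs. No count test was therefore run. The submitters' processing notes name kallisto, sleuth and TAIR10; the sources used here give neither versions nor the scaling. The authors' deposited tables of comparisons hold log2 changes and adjusted p-values per transcript, whose sign and base were checked against the normalized values (slope 1.01; 100% of 2857 compared calls had the same sign).

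Lanes were averaged (lowest lane correlation 0.931 in these 6 libraries), transcripts summed per gene, and log2(value + 1) tested with limma 3.58.1 (R 4.3.3; variance trend, 14 group means over 42 libraries, Benjamini-Hochberg over 20747 genes). The limma and usage steps were also run on simulated counts with a fixed dispersion. These held no lanes, scaling or reads shared among transcripts, so they do not test how such features act here. Per the series text the replicates are biological, and p-values rest on their spread. Names, exons and promoters came from TAIR10.1, which matched 99.2% of genes and 99.6% of transcripts; the deposited tables hold no coordinates. Other steps used Python 3.11.15, pandas 2.3.3, numpy 2.4.6 and matplotlib 3.10.9.

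The comparison and the 22 gene lists (566 members kept with the markers, 1 dropped for an unclear symbol) were chosen with earlier results of these data known. Genes named with values are the 15 largest rises and falls with separate groups and a mean of at least 20 in both, genes at 0 in a whole group (up to 5), the 4 largest called changes per list (or the 2 most abundant members where fewer than 2 were called), the 6 most abundant called each way, the 8 largest usage changes at a share of at least 10%, and the genes that differed between genotypes. Genes of the lists named beyond this were chosen after their values were seen. Alternatives covered scaling, pseudocount, filter, lanes, the libraries in the fit, a replicate block and leaving out each of the 12 libraries at 0 and 15 min of both genotypes. Leaving out each 30 min and CHX library of wild type was added after seeing the data; no other library was left out.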

Additional observations from a re-analysis of the deposited data

Results flagged for a closer look

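The difference between the responses of upf and wild type to 15 min of heat passed limma's test of the difference in 13 genes, 0.0627% of those tested. Differences are of gene totals, upf minus wild type in log2, and single transcripts of a gene can differ from its total. In the 10 genes with a difference below 0 unheated upf averaged more than unheated wild type. HSFA2 (-2.40, SE 0.23, adjusted p = 1.2e-07) averaged 112 ± 26.0 before heat in wild type and 632 ± 178 in upf (n = 3 each). CML37 (-2.25, adjusted p = 0.00023) averaged 2.00 ± 1.00 and 13.8 ± 3.01, and after 15 min 1261 ± 52.4 and 1346 ± 144. For both genes the ranges of the heated groups overlapped.

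RABH1c, a Rab GTPase gene (-1.95, adjusted p = 0.00010), changed by 4.44 in wild type and 2.49 in upf, and AT1G14480 (-1.65, adjusted p = 0.0045) by 4.24 and 2.598. AT5G49920 (-1.47, adjusted p = 0.038) changed by 5.87 and 4.40. These 3 rose in both genotypes. DAR6 (-1.70, adjusted p = 0.0020) changed by 2.16 and 0.47, AT5G18065 (-1.43, adjusted p = 0.00011) by 2.02 and 0.59, and AT5G07330 (-1.77, adjusted p = 0.038) by 1.69 and -0.08. BOA, a clock factor (-1.86, adjusted p = 0.0067), changed by 1.86 and 0.01, and PYE, a factor of the iron deficiency response (-1.43, adjusted p = 0.00011), by 1.02 and -0.41. For DAR6 the difference of totals was not seen in AT5G66620.4, its most abundant form in the 6 wild-type libraries. In the authors' deposited table this form changed by 3.41 in wild type and 3.22 in upf. The most abundant forms of the other genes of this paragraph differed more between genotypes there. Of these forms, the wild-type change of AT5G18065.1 (2.09) did not pass an adjusted p under 0.05 in that table, while the others did.

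The 3 genes with a difference above 0 had changes below 0 in wild type and between -0.09 and 0.22 in upf. AT4G16880 (1.49, adjusted p = 0.038) changed by -1.44 and 0.05, AT2G29910 (1.22, adjusted p = 0.0050) by -1.31 and -0.09, and ARPC3, a subunit of the actin-nucleating ARP2/3 complex (1.00, adjusted p = 0.0077), by -0.79 and 0.22. The call was lost in 9 other settings each for ARPC3, AT4G16880, AT5G07330 and AT5G49920, in 3 for BOA, 2 for AT2G29910 and 1 each for CML37 and AT1G14480.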

How the results depend on the processing

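No called value changed sign under the alternatives run, but some medians near 0 did, among them these: that of plastid-encoded genes (-0.11) was 0.12 without heated replicate 3 and 0.03 and 0.07 without unheated replicates 1 and 2, and that of the mitotic genes (0.13) was -0.03 with equal totals. Leaving out each of a genotype's 6 libraries in turn gave 1771 to 1866 genes risen and 1034 to 1089 fallen in wild type, and 1615 to 1678 and 882 to 967 in upf; without single upf libraries up to 1096 fell in wild type. The share of wild-type calls shared with upf was 77.9 to 84.4% for rises and 57.2 to 61.7% for falls. For the difference between genotypes it gave 8 to 17 genes below 0 (17 without unheated wild-type replicate 3) and 1 to 5 above 0 (5 without unheated wild-type replicate 1, 1 without heated wild-type replicate 2 or heated upf replicate 3). Usage gave 257 to 301 transcripts higher and 282 to 371 lower. A pseudocount of 10 gave 726 genes fallen, 1496 risen and 565 transcripts higher in usage. Equal totals gave 1552 fallen in upf and 0 genes above 0 in the difference between genotypes, for which lane 1 alone gave 1 and no filter 5. The causes were not tested. A filter at 50 gave 1631 risen and 799 fallen, and a fit to the 6 libraries alone 1798 and 1102. Same-numbered libraries correlated at 0.30, 0.05 and -0.10 in their deviations, so the replicate numbers were not taken as pairs; with a replicate block 1852 rose and 1098 fell. Of the values of named genes at 15 against 0 min 1938 kept their outcome, called or not called. A call was lost in 23, those of ASN1, ERD5, AT1G55152, BGAL1, IAA5, J8 and PYE. For CHX against none 1757 kept their outcome, 48 lost a call and 25 gained one, and for 30 against 15 min 1768, 37 and 25. Of the counts for lists 778 stayed within 1.5 times and 32 did not. For usage of named transcripts 542 kept their outcome, 37 lost a call and 6 gained one. Kept outcomes include values called in neither setting, so these counts do not give the share of calls that held.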

Other observations

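Markers of single cell types gave few calls. Of the 6 tested root markers WOX5, of the quiescent centre, rose by 1.76 and the others lay between -0.82 and 0.22. Of 4 markers of epidermis and guard cells none was called, with FMA at -0.95 and MYB60 at -0.93, and with equal totals 2 of the 4 fell. Of 3 vascular markers none was called, and of 4 seed markers SESA1 rose by 2.56 while CRA1 (-1.67), OLEO1 (-1.24) and CRU3 (-0.77) were not called. Their part in the results above was not tested.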
